A study of Mus musculus with 24 samples.

Results

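The antioxidant, glutathione and NRF2 target genes of the mouse pancreas were followed as a list of 38 members. It held the regulators Nfe2l2 and Keap1, the enzymes that make and recycle glutathione, thioredoxin and its partners, the peroxiredoxins, the superoxide dismutases, catalase and glutathione peroxidases, 10 glutathione S-transferases, and 5 enzymes that act on heme, quinones, epoxides and carbonyls. A member counted as measured when a probe that the platform annotation names for it was detected, at p under 0.05, on 4 or more of the 24 arrays. That left 28 of the 38 members, with 43 of their 64 named probes, among 9164 genes named by the 15328 probes kept. Another 6 members had probes detected on fewer than 4 arrays, and for Gsr, G6pdx, Prdx5 and Prdx6 the annotation used here named no probe.

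The 24 single-colour bead arrays carried pancreas RNA in 6 groups of 4, from males of the C57BL/6J strain, which gains weight on rich diets. All groups, the controls included, were bought at 3 weeks of age, housed singly, kept on standard diet for 2 weeks and then fed a high-fat diet (60% fat) for 12 weeks. The AFFB group received a fermented blackberry and blueberry beverage freed of alcohol, at 8.4 mg of anthocyanins per kg body weight per day. The PAE groups received the phenolic extract of such a beverage at 1.1 (0.1X), 9.0 (1X) and 18.9 (3X) mg of anthocyanins per kg per day; the sample titles call the highest dose 3X and the treatment protocol 2X. The sitagliptin group received that DPP-4 inhibitor at 150 mg per L of drinking water, and the control group drank water. Each treatment group held 12 mice per the labels, which give every array its own number without saying that each came from another animal; p-values then reflect only the variation among these arrays, part of which may be technical. The 12 kept acinar markers averaged 13.16 to 13.44 on the log2 scale on every array, so the tissue label holds, and in whole tissue fewer cells of a type and less RNA per cell cannot be told apart.

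NRF2, the product of Nfe2l2, is a transcription factor that KEAP1 holds in the cytoplasm and marks for breakdown in unstressed cells. When oxidants or electrophiles modify KEAP1, NRF2 builds up, enters the nucleus and, paired with a small MAF protein, binds antioxidant response elements near genes of glutathione synthesis, thioredoxin reduction, quinone reduction and conjugation. Plant phenolics are widely described as acting through this route. Acinar cells, which make most of the pancreas, fold large amounts of secreted protein, and the peroxide formed in that folding is handled in part by a peroxiredoxin of the endoplasmic reticulum, PRDX4.

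The letters of the element core, TGACNNNGC, were searched on both strands of RefSeq promoter windows that run from 250 bases before to 50 after a gene's start (GRCm38.p6). The core lay in a window of 10 of the 32 members that have one (31.2%), against 13.99% of all 27025 genes and 12.4% of all 32851 windows. Those 10 were Nfe2l2, Gclm, G6pdx, Txnrd1, Srxn1, Prdx1, Sod1, Gsta3, Gstm5 and Mgst1. The matches of the 4 measured members below are shown because their levels take up the results that follow. Each is read 5′ to 3′ on the strand of its gene, with the 9 letters of the core, or of its reverse complement, in capitals.
Gclm (chr3:122245411-122245443, plus strand): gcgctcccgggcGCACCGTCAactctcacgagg
Prdx1 (chr4:116685454-116685486, plus strand): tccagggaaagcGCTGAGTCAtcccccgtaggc
Sod1 (chr16:90220694-90220726, plus strand): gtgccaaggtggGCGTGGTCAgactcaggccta
Gsta3 (chr1:21240452-21240484, plus strand): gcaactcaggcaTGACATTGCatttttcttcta
The match of Prdx1 begins 133 bases before the start and overlaps the AP-1 letters TGANTCA, which no other match in the members does. The match of Gsta3 begins 121, that of Gclm 134 and that of Sod1 56 bases before the start. The match of Srxn1, not printed here, runs from base 29 to base 37 counted from the start, and so lies after it. A match of letters is a description of the sequence and shows no binding, and a window without it says nothing about sites outside those 300 bases.

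No member passed in any of the 8 comparisons tested with limma over all 15328 probes at an adjusted p under 0.05. The background was itself sparse: 0% of all probes passed for AFFB against water, 0% for PAE 0.1X, 0.00652% for PAE 1X, 0.0457% for PAE 3X and 0% for sitagliptin. It was 0.157% for the linear trend over the doses of the extract, with water as the lowest, 0.00652% for AFFB against PAE 1X, and 0.104% for the F test over the 5 treatments. At an unadjusted p under 0.05, 2 of the 28 members lay past the threshold for AFFB (5.26% of all named genes did), 3 for PAE 0.1X (4.19%), 3 for PAE 1X (6.84%), 5 for PAE 3X (5.34%) and 0 for sitagliptin (2.91%). The count was 4 for the trend (7.11%), 0 for AFFB against PAE 1X (4.77%) and 4 for the F test (4.59%). The smallest adjusted p of any member was 0.0614, for Prdx4 in the trend. In the F test Prdx4 had 0.211 and a second, dim probe of Gsta3 had 0.283. Against water the smallest was 0.342 at PAE 3X and 0.381 at PAE 1X, both for Prdx4, and 0.919 for AFFB.

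The direction of the members was mixed. For AFFB minus water 12 members were higher and 16 lower, with a median log2 difference of −0.01, where 52.5% of all named genes were higher. For PAE 0.1X it was 9 and 19 (median −0.03; 49.1% of all genes higher), for PAE 1X 15 and 13 (0.05; 56.8%), for PAE 3X 20 and 8 (0.10; 54.1%) and for sitagliptin 15 and 13 (0.01; 53.2%). For AFFB minus PAE 1X it was 12 and 16 (−0.05; 45.7%), and the slope over dose steps was positive for 18 and negative for 10 (0.02; 55.6%). With each array scaled to its median instead of quantile normalized, the split became 23 and 5 for PAE 1X, 26 and 2 for PAE 3X, 21 and 7 for sitagliptin, 4 and 24 for AFFB minus PAE 1X and 26 and 2 for the slope. That scaling moved the members and the probes as a whole: the median was 0.22 over members and 0.13 over all probes for PAE 1X, 0.40 and 0.16 for PAE 3X, 0.14 and 0.05 for sitagliptin, −0.24 and −0.13 for AFFB minus PAE 1X, and 0.14 and 0.06 per step for the slope. The map of the 28 members by comparison shows Gsta3, Gpx1 and Gstp1 as the rows of the widest differences.

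**Figure D1:**
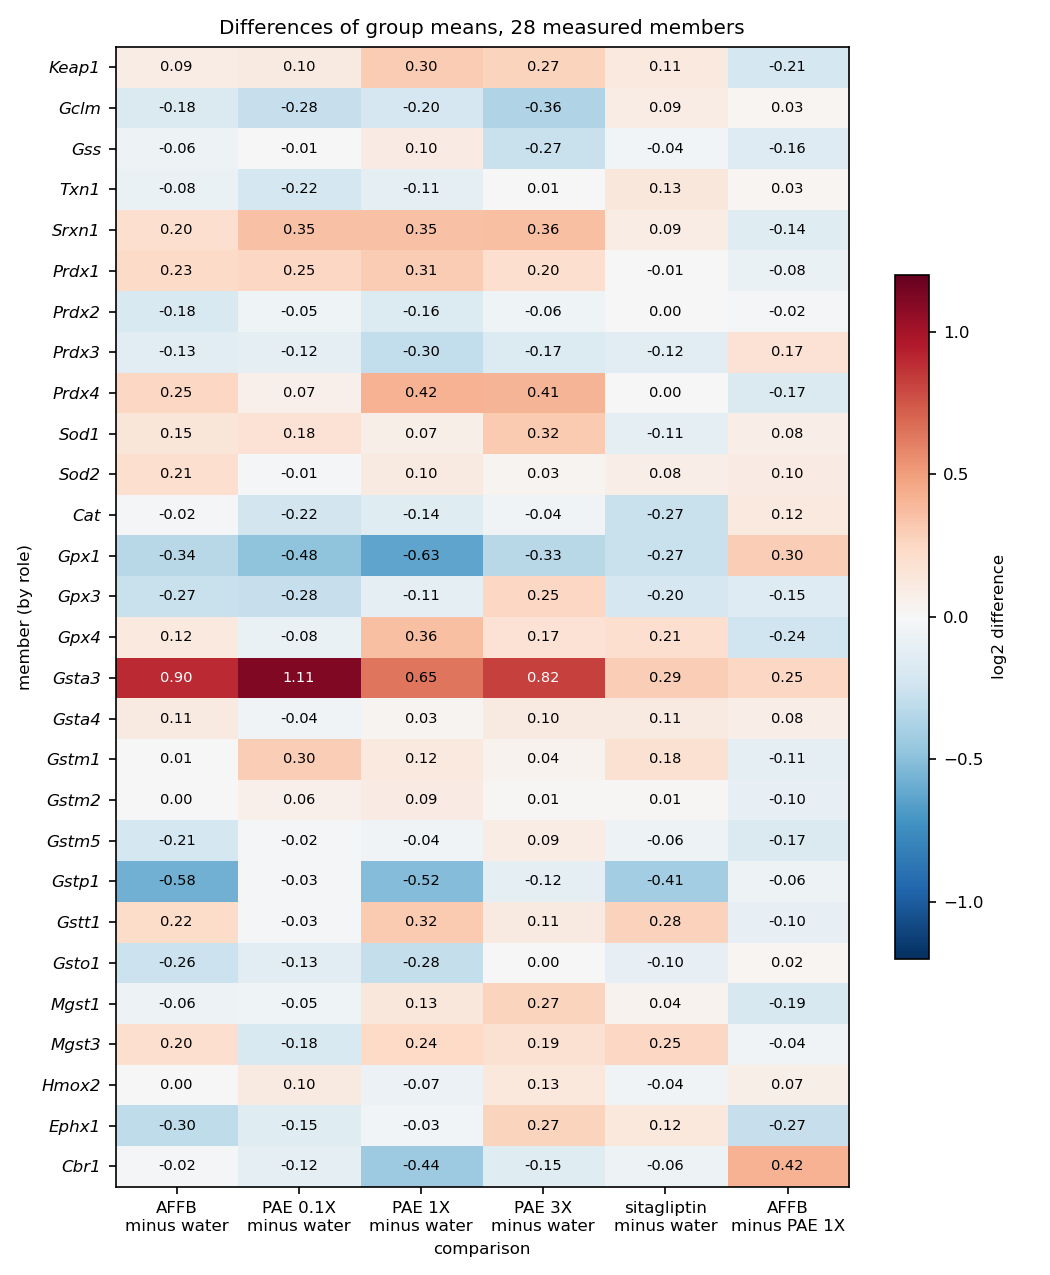
Log2 difference of group means for the 28 measured members (rows, by role) in 6 comparisons (columns), each gene by its brightest kept probe, with the value printed in each cell and red for higher in the group named first. Gsta3 is between 0.65 and 1.11 higher in the 4 berry groups than in water, Gpx1 between 0.33 and 0.63 lower, and no difference in the map passed the adjusted test.

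The precision of these arrays bounds what they could show. The median standard error of a member's difference from water was 0.20 log2 units. The 95% interval of the difference stayed within 1 log2 unit of 0 for 26 of the 28 members in AFFB, PAE 0.1X, PAE 1X and PAE 3X, all but Gsta3 and Gstp1, and for 27 in sitagliptin, all but Gstp1. It stayed within 0.5 for 9 members in AFFB, 10 on PAE 0.1X, 9 on PAE 1X, 8 on PAE 3X and 13 in sitagliptin. For AFFB minus PAE 1X, 27 members stayed within 1 and 12 within 0.5. Single arrays weighed on these means: of the 168 differences of the 28 members in the 6 comparisons of 2 groups, 149 came nearer to 0 by over 1.5 times or turned in sign when some 1 array of either group was left out, and so did 14 of the 25 that were over 0.3 in size.

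Of the regulators, Nfe2l2 itself was at the detection limit. Its probes were detected on 1 PAE 3X array and 1 water array and on no other. The classical targets Nqo1, the quinone reductase, Hmox1, the inducible heme oxygenase, Txnrd1, the cytosolic thioredoxin reductase, and Gclc, the catalytic subunit of glutathione synthesis, were also below the rule, as was the extracellular superoxide dismutase Sod3. Nqo1 was detected on 1 PAE 1X and 1 sitagliptin array, Hmox1 on 1 PAE 0.1X array, Gclc on 1 array each of PAE 3X, sitagliptin and water, Sod3 on 1 array each of PAE 3X and water, and Txnrd1 on none. Their signals before correction ran from 74.1 to 105.3, where the arrays' own medians ran from 81.3 to 98.7. At this brightness a fall or a small rise in these genes could not be read. None was detected on more than 1 array of any group, and no level is given for them.

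**Figure D2:**
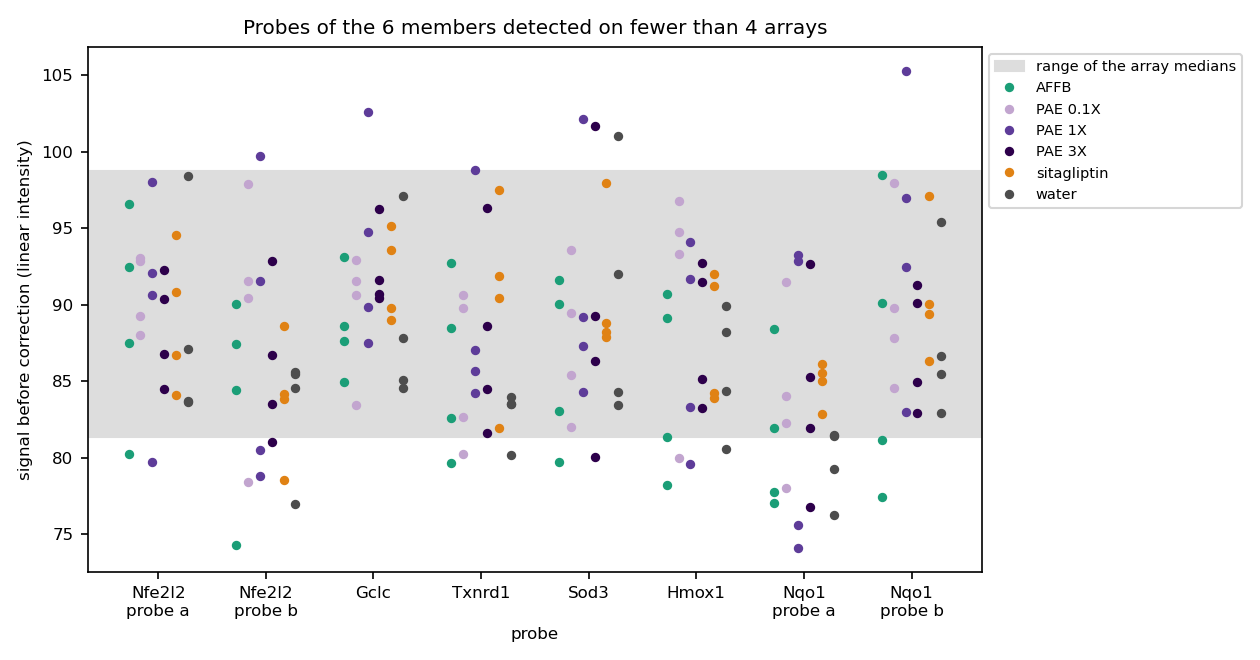
Signal before background correction (linear intensity) of the 8 probes of the 6 members detected on fewer than 4 arrays, 1 point per array, with the groups side by side in colour and the grey band marking the range of the 24 array medians, 81.3 to 98.7. Points of every group lie in or near the band for each probe.

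Keap1, the repressor of NRF2, was detected on all 24 arrays. Its brightest probe read 6.82, 7.01, 6.96 and 6.92 in AFFB, 6.65, 6.94, 7.12 and 7.05 on PAE 0.1X, 7.28, 7.11, 7.21 and 6.94 on PAE 1X, and 7.09, 7.01, 6.94 and 7.39 on PAE 3X. In sitagliptin it read 7.16, 6.77, 6.96 and 6.91, and in water 7.01, 6.72, 6.79 and 6.82. The PAE 1X and 3X arrays lay mostly above the water arrays and overlapped them through the highest water array. The difference from water was 0.30 ± 0.13 (SE) for PAE 1X, with an adjusted p of 0.727, and 0.27 ± 0.13 for PAE 3X (0.18 without the fourth PAE 3X array), with an adjusted p of 0.980. The 4 kept Keap1 probes did not move as one: a second probe was 0.45 higher on PAE 1X, and the dimmest was 0.28 lower in AFFB and 0.33 lower in sitagliptin, none passing.

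Among the genes of glutathione synthesis and reduction, 2 of 5 were measured. Gclm, the modifier subunit that makes the catalytic subunit efficient, read 7.27, 6.78, 7.20 and 7.14 in AFFB, 6.93, 7.21, 6.77 and 7.09 on PAE 0.1X, 6.67, 6.87, 7.36 and 7.38 on PAE 1X and 6.80, 7.09, 6.86 and 6.90 on PAE 3X. It read 7.62, 6.93, 7.33 and 7.58 in sitagliptin and 7.23, 7.39, 7.003 and 7.48 in water. All groups overlapped water. Its mean was below water in each berry group, most at PAE 3X (−0.36 ± 0.17, adjusted p 0.990). Txn1, thioredoxin itself, lay between −0.22 and 0.13 from water. Gss, glutathione synthetase, was dim, with detection on 11 arrays and differences from −0.27 to 0.10. The lowest was on PAE 3X, where a second, dimmer Gss probe ran the other way, averaging 4.70 against 4.43 in water.

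The peroxiredoxins break down peroxides through reactive cysteines, which sulfiredoxin, the product of Srxn1, restores. Srxn1, which repairs over-oxidised peroxiredoxins, read 5.81, 5.21, 5.20 and 4.80 in AFFB, 4.88, 5.32, 5.86 and 5.57 on PAE 0.1X, 5.36, 5.20, 5.79 and 5.25 on PAE 1X and 5.83, 5.20, 5.00 and 5.62 on PAE 3X. In sitagliptin it read 5.12, 5.22, 5.62 and 4.59, and in water 5.18, 5.15, 4.83 and 5.05. All 4 PAE 1X arrays lay above all 4 water arrays, the nearest by a small step, and the other groups overlapped water. The difference at PAE 1X was 0.35 ± 0.23, with an adjusted p of 0.794, and 0.22 without the third PAE 1X array.

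Prdx4, the peroxiredoxin of the endoplasmic reticulum, was the member with the smallest p. It read 12.86, 12.58, 12.80 and 12.69 in AFFB, 12.49, 12.59, 12.64 and 12.49 on PAE 0.1X, 12.96, 12.92, 12.94 and 12.80 on PAE 1X, and 12.83, 13.06, 12.99 and 12.71 on PAE 3X. It read 12.64, 12.51, 12.31 and 12.49 in sitagliptin and 12.41, 12.54, 12.41 and 12.58 in water. Every PAE 1X and PAE 3X array lay above every water array, while AFFB touched the top of the water range and the 0.1X and sitagliptin arrays overlapped it. The mean was 12.73 ± 0.12 in AFFB, 12.55 ± 0.08 on PAE 0.1X, 12.91 ± 0.07 on PAE 1X, 12.90 ± 0.16 on PAE 3X, 12.49 ± 0.14 in sitagliptin and 12.49 ± 0.09 in water (SD, n = 4 each).
The differences from water were 0.42 ± 0.11 for PAE 1X, a 1.34-fold higher signal, and 0.41 ± 0.11 for PAE 3X, 1.33-fold higher, both short of the adjusted threshold. Across water, 0.1X, 1X and 3X the slope was 0.16 ± 0.03 log2 units per dose step, with an adjusted p of 0.0614. Prdx4 passed in the trend in 8 of 17 other processing settings, with adjusted p from 0.00750 to 0.290 over those 17, and in none of the 24 fits that left out an array (0.0559 to 0.223). The slope stayed between 0.13 and 0.22 per step in all 40 of the settings that used dose steps. AFFB, with an anthocyanin dose near that of PAE 1X, was 0.17 ± 0.11 below it for Prdx4, with a 95% interval of −0.40 to 0.05.

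Means of cell type markers differed between PAE 3X and water as well, those of red cells and of fat cells among them. The 5 erythroid markers kept of 10 listed had array means of 8.13 to 9.48 on PAE 3X, against 7.75 to 8.46 in water, and 4 of the 5 were higher on PAE 3X, none passing; the other 5 listed had no kept probe. The 8 adipocyte markers kept of 13 averaged 5.20 to 5.67 on PAE 3X, against 5.34 to 6.38 in water, and 7 of the 8 were lower, of which only Lpl, lipoprotein lipase, passed (−1.08 ± 0.19, SE; adjusted p = 0.0361). The acinar array means lay wholly below water on PAE 3X, at 13.28 to 13.36 against 13.39 to 13.42. Also lower there were 10 of 12 acinar, 9 of 10 macrophage, 6 of 8 islet and 6 of 7 stellate and fibroblast markers. So were all 3 B and plasma cell markers and 3 of 6 each for duct and endothelial markers, none passing. No fit held the acinar, macrophage or islet mean. With the erythroid mean in the fit the Prdx4 slope was 0.16 (adjusted p 0.137), and with the adipocyte and B cell means 0.15 (adjusted p 0.231).

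By their brightest probes the other peroxiredoxins did not separate from water. Prdx1, a cytosolic peroxiredoxin and NRF2 target, read 10.17, 9.82, 9.91 and 9.80 in AFFB, 9.91, 9.94, 10.17 and 9.77 on PAE 0.1X, 10.28, 10.08, 10.01 and 9.66 on PAE 1X, 10.08, 9.64, 9.70 and 10.17 on PAE 3X, and 9.65, 9.69, 10.01 and 9.43 in sitagliptin, against 9.83, 9.78, 9.62 and 9.57 in water. The means of the berry groups were 0.20 to 0.31 above water, with overlap in each and no pass; without the first AFFB array the AFFB value was 0.14, and without the fourth PAE 3X array the PAE 3X value was 0.11. Prdx2 had, by its brightest probe, the smallest spread of all members over the 24 arrays (SD 0.14). A dim Prdx2 probe, detected on 0 of the 4 water arrays (4.25 to 4.55), separated from water in several groups. It was wholly above water on PAE 1X (4.65 to 4.96), PAE 3X (4.72 to 5.14) and sitagliptin (4.74 to 5.05), none passing. Another dim Prdx2 probe overlapped water in every group. The mitochondrial Prdx3 was 0.12 to 0.30 below water in every treated group without passing. It was 0.08 above water without the second AFFB array and 0.05 above it without the third sitagliptin array.

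**Figure D3:**
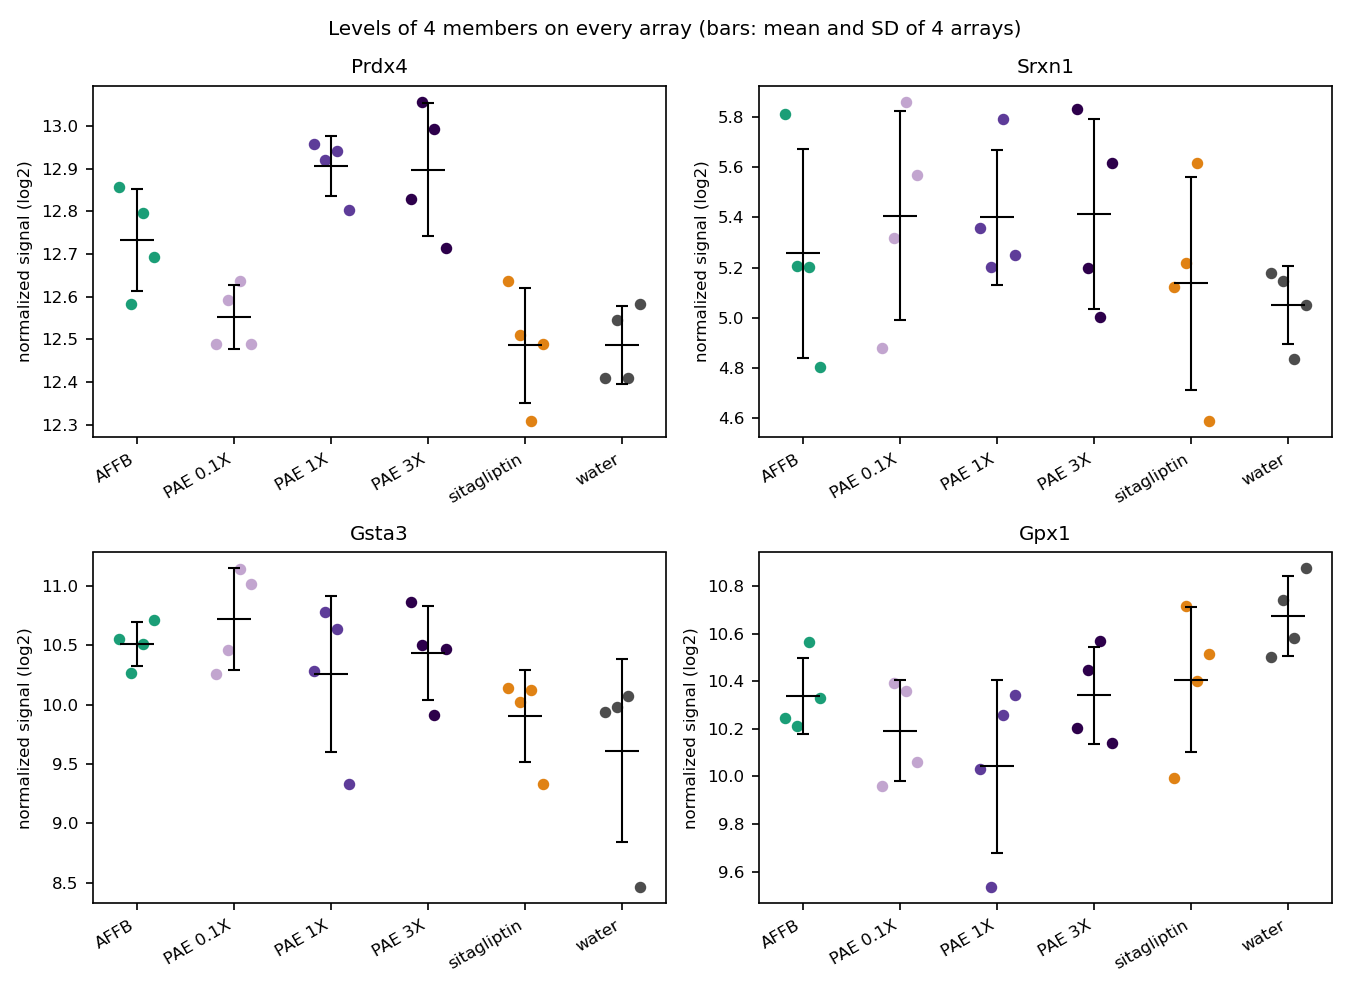
Normalized signal (log2) of Prdx4, Srxn1, Gsta3 and Gpx1 on every array by group, with 1 point per array and bars at the mean and SD of 4 arrays; the vertical axes differ and do not start at 0. PAE 1X and PAE 3X lie wholly above water for Prdx4, PAE 0.1X and PAE 1X wholly below water for Gpx1, and 1 water array of Gsta3 lies far under the other 3.

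Of the superoxide dismutases, catalase and glutathione peroxidases, 6 of 7 were measured. Sod1, the cytosolic copper and zinc enzyme, read 10.26, 9.76, 10.10 and 9.92 in AFFB, 9.92, 9.91, 10.08 and 10.24 on PAE 0.1X, 10.07, 9.77, 9.97 and 9.91 on PAE 1X, 10.30, 10.14, 10.07 and 10.21 on PAE 3X, and 9.69, 9.87, 9.65 and 9.81 in sitagliptin, against 9.74, 10.06, 9.73 and 9.90 in water. Only the PAE 3X arrays lay wholly above water, by 0.32 ± 0.12 in the mean (adjusted p 0.882). The lowest of them, at 10.067, was barely above the highest water array, at 10.064. Gpx1, the cytosolic selenium-dependent glutathione peroxidase, read 10.25, 10.21, 10.57 and 10.33 in AFFB, 9.96, 10.39, 10.36 and 10.06 on PAE 0.1X, 10.03, 9.53, 10.26 and 10.34 on PAE 1X, and 10.20, 10.45, 10.57 and 10.14 on PAE 3X. It read 9.99, 10.72, 10.40 and 10.51 in sitagliptin and 10.50, 10.74, 10.58 and 10.87 in water. The PAE 0.1X and 1X arrays lay wholly below the water arrays.
The mean of Gpx1 was below water in all 5 treated groups, at −0.34 in AFFB, −0.48 on PAE 0.1X, −0.63 on PAE 1X, −0.33 on PAE 3X and −0.27 in sitagliptin (−0.13 without its first array), comparisons that share the same 4 water arrays. None passed, the smallest adjusted p being 0.384 at PAE 1X, where the 95% interval ran from −0.99 to −0.28. Its slope over dose steps was −0.12 and turned to 0.01 when arrays were scaled to their medians.
Cat, catalase, was at −0.27 from water in sitagliptin, or −0.17 without the third water array, and at −0.22 to −0.02 in the berry groups. Sod2, the mitochondrial enzyme, lay between −0.01 and 0.21 from water, Gpx3, the secreted peroxidase, between −0.28 and 0.25, and Gpx4 between −0.08 and 0.36, the highest being PAE 1X, at 0.03 without its second array. A second Gpx4 probe, detected on all 24 arrays, ran the other way on PAE 1X and PAE 3X. It averaged 7.12 on PAE 1X and 7.10 on PAE 3X, against 7.27 in water.

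Read by the brightest probe of each gene, counts of separated groups were few. Members whose 4 arrays all lay above the 4 water arrays numbered 1 in AFFB (Gsta3; 1.96% of all named genes did so), 1 on PAE 0.1X (Gsta3; 1.6%), 2 on PAE 1X (Prdx4 and Srxn1; 2.41%) and 2 on PAE 3X (Prdx4 and Sod1; 2.73%), and 0 in sitagliptin (1.28%). Members wholly below water were 0 in AFFB (1.81%), 1 on PAE 0.1X (Gpx1; 1.72%), 1 on PAE 1X (Gpx1; 1.64%), 0 on PAE 3X (2.03%) and 0 in sitagliptin (0.971%). Between AFFB and PAE 1X no member separated upward (0.917%) or downward (1.37%).

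The glutathione S-transferases attach glutathione to electrophiles, and all 10 were measured. For PAE 3X 9 of the 10 were above water with a median of 0.10, for PAE 1X 7, for AFFB 5, for PAE 0.1X 3 and for sitagliptin 7, none passing. Gsta3, an alpha-class enzyme, had the widest differences from water of any member in the 4 berry groups with all arrays in; in sitagliptin the widest was that of Gstp1 (−0.41). Gsta3 read 10.55, 10.26, 10.51 and 10.72 in AFFB, 10.26, 10.46, 11.15 and 11.02 on PAE 0.1X, 10.29, 10.78, 10.64 and 9.33 on PAE 1X, and 10.87, 10.50, 9.91 and 10.47 on PAE 3X. It read 10.14, 10.03, 10.12 and 9.33 in sitagliptin and 9.93, 9.98, 10.08 and 8.46 in water. The AFFB and PAE 0.1X arrays lay wholly above water, and 1 array each of PAE 1X, PAE 3X, sitagliptin and water was far lower than the rest of its group.
The differences were 0.90 ± 0.32 in AFFB, 1.11 ± 0.32 on PAE 0.1X, 0.65 ± 0.32 on PAE 1X, 0.82 ± 0.32 on PAE 3X and 0.29 ± 0.32 in sitagliptin. None passed, the smallest adjusted p of this brightest probe being 0.749, in the trend. Without the fourth water array they were 0.51 in AFFB, 0.72 on PAE 0.1X, 0.26 on PAE 1X, 0.44 on PAE 3X and −0.09 in sitagliptin. A second, dim probe gave 0.61 in AFFB, 0.49 on PAE 0.1X, 0.49 on PAE 1X, 0.58 on PAE 3X and −0.05 in sitagliptin. Its arrays in AFFB (4.89 to 5.54), PAE 0.1X (5.01 to 5.29) and PAE 3X (5.01 to 5.31) lay wholly above water (4.33 to 4.83). PAE 1X and sitagliptin overlapped water, where the probe was detected on 2 of the 4 arrays. This probe did not pass either (adjusted p 0.283 in the F test).
The low Gsta3 values lay on arrays with high levels of circadian clock genes. On the 5 arrays whose mean over 10 clock genes stood above the widest gap (the second and the third of PAE 3X and the fourth of PAE 1X, sitagliptin and water), Gsta3 ran from 8.46 to 10.50 with a median of 9.33, against 9.93 to 11.15 with a median of 10.46 on the other 19. Without those 5 arrays the difference from water was 0.51 in AFFB, 0.72 on PAE 0.1X, 0.57 on PAE 1X and 0.67 on PAE 3X. With the clock mean in the fit it was 0.72 in AFFB, 0.77 on PAE 0.1X, 0.63 on PAE 1X and 1.004 on PAE 3X, where the adjusted p was 0.0744.

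Gstp1, the pi-class transferase, had by its brightest probe the largest SD of all members (0.79), and that spread followed 3 arrays rather than a group. It read 11.94, 9.87, 11.32 and 11.68 in AFFB, 11.37, 11.84, 12.00 and 11.82 on PAE 0.1X, 11.43, 9.14, 12.31 and 12.18 on PAE 1X, and 11.12, 12.38, 12.18 and 10.97 on PAE 3X. It read 11.57, 11.87, 10.17 and 11.87 in sitagliptin and 11.58, 11.81, 11.72 and 12.03 in water. The second arrays of AFFB and PAE 1X and the third of sitagliptin were the 3 lowest, at 9.14 to 10.17 against 10.97 to 12.38 on the other 21.
These were also the 3 arrays farthest from the rest on the first principal component of all kept probes, which held 28.4% of the variance. Over the 24 arrays Gstp1 followed that component with r = −0.97, Gsto1 with −0.85, Prdx3 with −0.85 and Cbr1 with −0.84, while Gpx4 followed it with 0.89, Sod2 with 0.78 and Gstt1 with 0.77. These are descriptions over arrays that share their groups, and what sets the component was not tested. On the 3 arrays Gpx4, which reduces lipid peroxides in membranes, was 9.77 to 10.33, against 8.39 to 9.57 on the other 21, and Mgst3, a microsomal transferase, 7.30 to 7.98, against 5.86 to 7.20. A second bright Gstp1 probe, detected on all 24 arrays, had an SD of 0.29. Its lowest values were on the second arrays of AFFB (9.90) and PAE 1X (10.21). On the third sitagliptin array it read 10.71, near the 10.76 to 10.98 of the rest of that group. Prdx4 did not follow the component (r = −0.03).
Pairs of members behaved accordingly. Of 378 pairs the median r over the arrays was −0.02, with 32 above 0.5 and 31 below −0.5. The highest were Gstp1 with Gsto1 (0.85), Gstp1 with Cbr1 (0.81) and Gstp1 with Prdx3 (0.79), and the lowest Gpx4 with Gstp1 (−0.89), Gpx4 with Prdx3 (−0.83) and Gpx4 with Gsto1 (−0.80). Without the 3 arrays, 24 pairs were above 0.5, and r was 0.70 for Gstp1 with Gsto1, 0.43 for Gstp1 with Cbr1, 0.59 for Gstp1 with Prdx3, −0.72 for Gpx4 with Gstp1, −0.69 for Gpx4 with Prdx3 and −0.60 for Gpx4 with Gsto1.

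**Figure D4:**
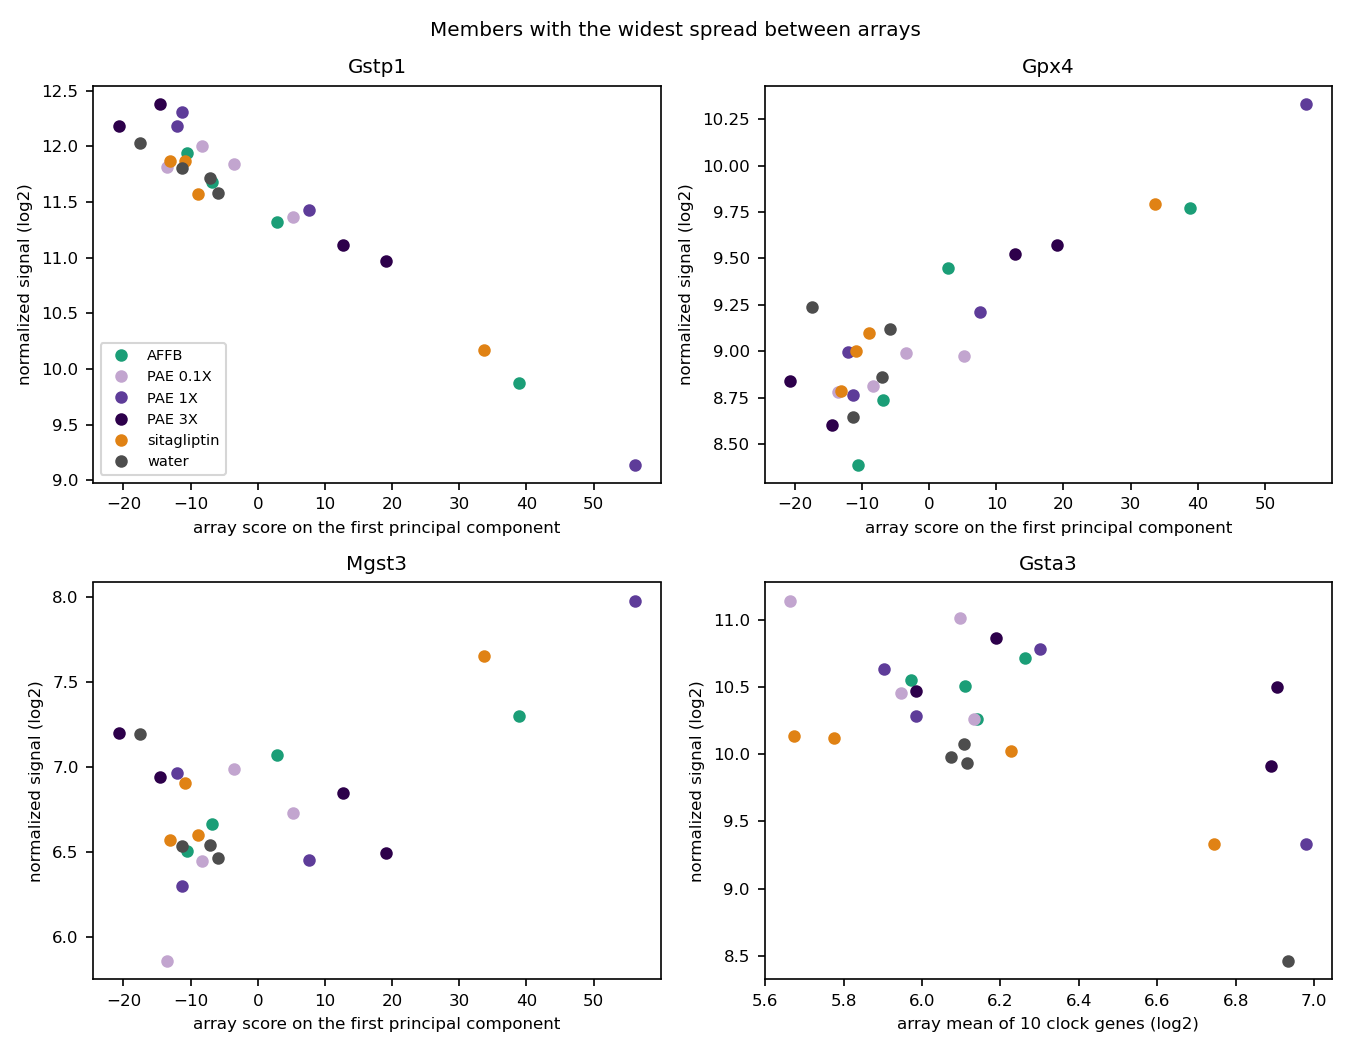
Normalized signal (log2) of Gstp1, Gpx4 and Mgst3 against each array's score on the first principal component of all kept probes, and of Gsta3 against the array mean of 10 clock genes, with 1 point per array coloured by group. The 3 arrays at the right carry the lowest Gstp1 (9.14 to 10.17) and the highest Gpx4 and Mgst3, and 4 of the 5 arrays of high clock level carry the lowest Gsta3.

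Gstm1 and Gstm2, of the mu class, were among the steadiest. Gstm2 had an SD of 0.16 and lay within 0.09 of water in every group, and Gstm1 had an SD of 0.18. Gstm1 was 0.30 ± 0.13 above water on PAE 0.1X (adjusted p 1.000) and 0.18 above it in sitagliptin. Without the fourth water array these were 0.19 on PAE 0.1X and 0.07 in sitagliptin, and a second, dim Gstm1 probe was at −0.26 on PAE 0.1X. The theta-class Gstt1 was 0.28 above water in sitagliptin, or 0.13 without the third sitagliptin array, and 0.32 on PAE 1X, or 0.10 without the second PAE 1X array, without passing. None of the other transferases passed: Gsta4, detected on 11 arrays, differed from water by −0.04 to 0.11, Gstm5 by −0.21 to 0.09, Gsto1 by −0.28 to 0.00, Mgst1 by −0.06 to 0.27, Mgst3 by −0.18 to 0.25 and Gstp1 by −0.58 to −0.03. The Gstp1 difference was −0.14 in AFFB and 0.19 on PAE 1X without the second array of each, and −0.01 in sitagliptin without the third sitagliptin array. Members of these families are alike in sequence, and probes may not tell them apart.

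Of the enzymes that act on heme, quinones, epoxides and carbonyls, 3 of 5 were measured. Cbr1, a carbonyl reductase, was the member with the smallest p between AFFB and PAE 1X. It read 7.60, 7.24, 7.76 and 7.74 in AFFB, against 7.18, 6.18, 7.55 and 7.75 on PAE 1X, and the groups overlapped. The difference of 0.42 ± 0.23 (adjusted p 0.9995) was 0.09 without the second PAE 1X array. Hmox2, the constitutive heme oxygenase, stayed within 0.13 of water, and Ephx1, the microsomal epoxide hydrolase, ran from −0.30 in AFFB to 0.27 on PAE 3X, the PAE 3X value being 0.13 without the second water array.

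The 7 measured members with the element core in their promoter window were compared with the 20 measured members whose window lacks it. At PAE 3X 6 of the 7 were above water with a median of 0.27, against 13 of the 20 with a median of 0.02. For AFFB it was 4 of 7 (0.15) against 7 of 20 (−0.02), for PAE 0.1X 4 (0.18) against 5 (−0.07), for PAE 1X 5 (0.13) against 9 (−0.05), and for sitagliptin 4 (0.04) against 10 (0.00). Gclm, with the core, was the exception at PAE 3X by the brightest probes. The median of the 7 there was the value of Mgst1, whose brightest probe averaged 6.48 on PAE 3X and 6.21 in water. Its water arrays ran from 5.62 to 6.91. A second, dimmer Mgst1 probe ran the other way, averaging 5.25 on PAE 3X and 5.38 in water. None of these members passed, the differences from water share the same 4 water arrays, and no test was made of the split. Single arrays weighed on it unevenly. As each array was left out, the PAE 3X difference ran from 0.439 to 0.999 for Gsta3 and from 0.274 to 0.385 for Sod1.

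A list of 73 further antioxidant and NRF2 pathway genes had 52 measured, and a list of 14 genes that make or carry selenocysteine had 11; none of them passed in any comparison. At an unadjusted p under 0.05 the selenocysteine list had 0 in each of the 7 single comparisons and the first list 1 gene for AFFB, 1 for PAE 0.1X, 2 for PAE 1X, 2 for PAE 3X, 0 for sitagliptin, 3 for the trend and 1 for AFFB against PAE 1X. The share of all named genes past that threshold was 5.26% for AFFB, 4.19% for PAE 0.1X, 6.84% for PAE 1X, 5.34% for PAE 3X, 2.91% for sitagliptin, 7.11% for the trend and 4.77% for AFFB against PAE 1X. Of the 52 genes, 32 were above water in AFFB, 30 on PAE 0.1X, 30 on PAE 1X, 35 on PAE 3X and 33 in sitagliptin, beside the 49.1% to 56.8% of all named genes given above. The small MAF protein gene Mafg, whose product pairs with NRF2, read 5.73, 6.49, 5.83 and 6.44 in AFFB, 6.04, 6.41, 6.26 and 6.03 on PAE 1X and 5.88, 6.25, 5.70 and 6.50 on PAE 3X, against 5.40, 6.16, 5.69 and 5.40 in water. It overlapped water in each group, and was above it by 0.46 ± 0.20 in AFFB, 0.52 ± 0.20 on PAE 1X and 0.42 ± 0.20 on PAE 3X, with a smallest adjusted p of 0.600, in the trend. Sqstm1, an adaptor that binds KEAP1, was at −0.39 from water in AFFB, or −0.23 without the second AFFB array. Osgin1, an NRF2-responsive gene, was 0.64 above water on PAE 1X, or 0.41 without the fourth water array. Of the selenocysteine list, whose products include the carriers and enzymes that Gpx1 and Gpx4 need, 8 of 11 were above water on PAE 3X and 3 on PAE 1X, and Selenof, at −0.67 ± 0.40 on PAE 1X, had the widest difference, which was −0.10 without the second PAE 1X array.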

How the data were processed

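RNA of mouse pancreas was run on single-colour Illumina arrays, as the labels state. A deposited signal table held, per the file headers, a linear intensity and a detection p-value for 45281 probes on 24 arrays, not background-corrected or normalized. A second deposited table held log2 values, for which the submitters' processing notes name R 3.1.2 and limma 3.22.1. Those log2 values lay within 0.00194 of the ones used here for 99% of values, and served as an alternative.

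Here limma 3.58.1 (R 4.3.3) corrected the signals and normalized them by quantiles through neqc (background from the detection p-values, offset 16), and log2 was taken. Probes detected (p under 0.05) on at least 4 arrays were kept, 15328 in all, of which 13086 had 1 symbol, 8 several and 2234 none. Per array 24.0% to 31.1% of probes were detected, and the 4 arrays per group limit precision.

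One limma fit with group means on all 24 arrays, eBayes and Benjamini-Hochberg adjustment over all kept probes gave each treatment minus water, AFFB minus PAE 1X, a slope over dose steps and an F test, two-sided. Errors of differences are standard errors. A gene was read by its brightest kept probe. Members with values are those with the 4 smallest p in a comparison, a panel of 13 genes, the 4 widest and 4 narrowest SD, and the 3 highest and 3 lowest pairs; the rest are given by their ranges. The members and the gene lists were chosen with earlier results of these data known. The fit was tested on simulated data. Alternatives changed background, scaling, filter, variance model, covariates, arrays and the probe per gene. Replicate numbers in the titles did not pair the arrays: same-numbered arrays had a mean residual correlation of 0.01 over 60 pairs.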

Additional observations from a re-analysis of the deposited data

Results flagged for a closer look

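Within groups of 4 arrays, 5 of 108 groups of the 18 members described with values held an array whose gap to the nearest of the others, over the group's whole range, was above the 95% critical value of Dixon's test. Chance gives about 1 such group in 20. The fourth water array gave 3 of them: Gsta3 at 8.46, with the other water arrays at 9.93 to 10.08, Sod2 at 9.50, with the others at 9.83 to 9.87, and Mgst3 at 7.20, with the others at 6.47 to 6.54. The fourth sitagliptin array had Gsta3 at 9.33, with the others at 10.03 to 10.14. Both arrays belong to the 5 of high clock level. The third sitagliptin array had Cbr1 at 7.05, with the others at 7.67 to 7.79, and is one of the 3 arrays that stand apart on the first principal component. The part of these arrays' other differences in these values was not tested.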

How the results depend on the processing

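In the trend, 1 member passed, always Prdx4, in 8 settings: without background correction (adjusted p 0.00750), with an offset of 50 (0.00891), with array quality weights (0.0125), with eBayes trend and robust (0.0209), without a filter on dim probes (0.0326), with a gene's probes averaged (0.0345), with probes detected on all 24 arrays (0.0440), and without the 3 arrays far on the first principal component (0.0491). Prdx4 was also the 1 member passing for PAE 3X without background correction (0.0391) and in the F test without background correction (0.0160) and with an offset of 50 (0.0258). The cause was not tested. Leaving out each array in turn gave 0 passing members in all 8 comparisons. With the replicate number as a block 0 members passed; it changed no call among the members, and probes called were 4 for PAE 1X, 9 for PAE 3X and 19 for the trend, against 1, 7 and 24 without it. 2 named values reversed: Prdx2 in AFFB minus water was 0.10 with probes averaged (−0.18 otherwise), since its dim probes ran the other way, and the Gpx1 slope was 0.012 under median scaling. The member median moved beyond the replicate spread under median scaling (values in the text), to −0.02 for PAE 1X with array weights, and to 0.01 for AFFB minus PAE 1X with probes averaged or without the fourth AFFB array. Dim probes limit the list: 6 members, with Nfe2l2 and 4 of its classical targets among them, were not well above background.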
